A study of Mus musculus with 21 samples.

Results

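The genes described here encode the subunits of the mitochondrial respiratory chain and of ATP synthase. They were chosen by gene symbol alone: every probe set that the array platform assigns to a single gene whose symbol begins with Ndufa, Ndufb, Ndufc, Ndufs, Ndufv, Sdha to Sdhd, Uqcr, Cox4 to Cox8 or Atp5, leaving out Cox6a2 and the Ndufaf assembly factors. The rule found 81 genes of 18193 with a symbol of their own, measured by 167 of 45101 probe sets. Complex I has 34 members, complex II 4, complex III 8, complex IV 18 and ATP synthase 17. Ndufa4 and its paralog Ndufa4l2 were counted with complex IV, where Ndufa4 protein is found. The subunits encoded by mitochondrial DNA have other symbols and are not among the members.

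Expression was measured on Affymetrix Mouse Genome 430 2.0 arrays, 1 array per sample, in 7 groups of 3. The 4 groups written below as marrow were bone marrow cells sorted for B220, a surface protein of the B lineage: wild-type, transgenic for Cebpb LAP, labelled Blnk knockout, and labelled with both changes ("LAP knockout"). LAP, made from Cebpb, is the long form of C/EBPβ that activates transcription, and BLNK is an adaptor protein of pre-B cell receptor signalling. In the other 3 groups the cells were LB31, a leukaemic pre-B line derived from 1 Blnk knockout mouse, carrying the retroviral vector pMY without insert, with Blnk cDNA, or with the loss-of-function Blnk mutant YF. All 3 LB31 groups were cultured in RPMI1640 medium containing IL7 at 5 ng/ml and 10% FBS, so every LB31 array shares the line, its knockout label, the vector and the medium. The promoter of the transgene, the ages of the mice and whether replicates were separate animals or cultures are not stated in the labels used here. Each p-value then measures no more than the spread among arrays within groups, and that spread may be technical. It is 1 estimate shared by all 7 groups, so the LB31 arrays bear on the p-values of the marrow and the reverse.

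Complex I takes electrons from NADH and complex II takes them from succinate. Both pass them to ubiquinone, from which complex III hands them to cytochrome c and complex IV to oxygen. Complexes I, III and IV pump protons while doing so, and ATP synthase lets the protons back through its rotating c ring to make ATP. Most subunits are encoded in the nucleus, and the nuclear respiratory factor NRF1, the ETS-family factor GABP and MYC, which binds E-boxes, are known regulators of their transcription. Resting lymphocytes have little mitochondrial activity, and it rises when lymphocytes grow and divide.

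The promoters below each hold the motif of 1 of these factors. They were picked from the results: each belongs to the motif-holding member with the largest rise in empty-vector LB31 against knockout-labelled marrow. A rise of these genes is thus no support for a role of their motifs. The printed promoters are 100-base stretches upstream of the start of the gene from RefSeq, build GRCm38.p6, minus strand, 5′ to 3′, with the motif in capitals. The Atp5g2 stretch lies at chr15:102671048-102671147 and holds the NRF1 motif, a palindrome spelled out by its capitals. The Uqcr11 stretch lies at chr10:80406828-80406927 and holds the ETS motif CCGGAAG. The Atp5g1 stretch lies at chr11:96075632-96075731 and holds the E-box CACGTG.
Atp5g2: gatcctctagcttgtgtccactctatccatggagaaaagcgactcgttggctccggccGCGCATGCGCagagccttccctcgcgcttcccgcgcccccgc
Uqcr11: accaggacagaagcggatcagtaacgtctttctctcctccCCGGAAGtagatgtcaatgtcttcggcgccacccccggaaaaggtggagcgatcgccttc
Atp5g1: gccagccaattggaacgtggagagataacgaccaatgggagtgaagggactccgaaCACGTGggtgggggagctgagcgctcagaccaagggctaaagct
The motif begins 42 bases before the start of Atp5g2, 66 before that of Uqcr11 and 44 before that of Atp5g1. A promoter was found for 67 of the 81 members. In the 250 bases before the start, on either strand, the NRF1 motif was in 3 of these 67 members (4.5%: Atp5g2, Atp5k and Cox6a1). It was in 0.78% of all 32851 promoters. The ETS motif was in 12 members (17.9%) and in 6.91% of all promoters. The E-box was in 6 members (9.0%: Atp5g1, Atp5g3, Atp5l, Atp5pb, Ndufa7 and Ndufv1) and in 6.02% of all promoters. The shares of members count genes, while the shares of all count promoters. A gene with several promoters has more chances of a match, so these shares are not compared. None of the 3 motifs contains another. A match is a run of letters and not a measured binding site.

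Each value below is the log2 of the signal plus 4 after quantile normalization over the 21 arrays, and each difference is on that scale. Where a gene had several probe sets, the brightest was its representative. A member was called when its Benjamini-Hochberg adjusted p from limma, over 14655 genes tested, was below 0.05. Of the 81 members, 80 passed the filter for low signals and 74 were above it on all 21 arrays. The exceptions were Cox7b2, above it on 0 arrays, and Cox4i2, Cox6b2, Cox7a1, Cox8b, Ndufa4l2 and Ndufb4, above it on 3 to 18 arrays. The 9 listed B-lineage marker genes were above the filter on all 21 arrays.

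Several facts about the arrays bear on the results. The Blnk probe set read 12.44 ± 0.09 (SD, n = 3) in wild-type and 12.37 ± 0.24 in knockout-labelled marrow, and 8.56 ± 0.06 in the BLNK-labelled against 9.63 ± 0.02 in the empty-vector LB31 arrays. The probe set is thus no check of the knockout or of the transduction, and groups are named by their labels. For Cebpb the wild-type marrow read 5.43 and the knockout-labelled marrow 5.02, while both LAP groups (10.05 and 9.90) and all 3 LB31 groups (10.09 to 10.22) read far higher. The median deposited signal averaged 21.5 in wild-type and 21.1 in LAP transgenic marrow, 28.8 and 29.3 in the knockout-labelled groups, and 16.7 to 18.4 in LB31. Because the groups differ in this overall level, the counts of all members called are set against the shares of all genes called under 3 scalings: quantile normalization, the values as deposited, and centring of each array on its median. Centring moves every gene of an array by the same amount. The median of the members relative to that of all genes is therefore, by construction, the same after centring as in the deposited values. Counts by complex, list or probe set are after quantile normalization unless another scaling is named. As deposited, the median gene was 0.29 higher in knockout-labelled than in wild-type marrow, 0.35 higher in LAP knockout-labelled marrow, and 0.42 lower in LB31 with the empty vector than in the knockout-labelled cells. The 3′ to 5′ signal ratio of GAPDH, a measure of RNA integrity, was 0.691 to 0.743 in LB31 and 0.764 to 1.04 in marrow. Within marrow it was 0.764 to 0.805 in wild-type, 0.874 to 1.04 in LAP transgenic, 0.822 to 0.85 in knockout-labelled and 0.803 to 0.923 in LAP knockout-labelled arrays. The same ratio of actin was 1.14 to 1.28 in LB31 and 1.35 to 1.49 in marrow.

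The respiratory chain was higher in LB31 than in marrow. In the empty-vector LB31 arrays 59 members rose and 6 fell relative to knockout-labelled marrow, 65 of 80 in all, where 59.3% of all genes tested were called, 29.4% higher and 29.9% lower. The 6 include Cox6b2, which passed the filter through the marrow arrays alone. The median change of the members was 0.40 against 0.07 for all genes tested. The middle 50% of the members lay between 0.15 and 0.73, that of all genes between -0.63 and 0.64, so the members were shifted upward over a narrower range. As deposited, 34 members were called higher and 9 lower, with 12.8% and 43.2% of all genes. After median centring these counts were 70 and 2, with 33.9% and 24.4% of all genes. The median of the members exceeded that of all genes by 0.33 after quantile normalization and by 0.67 as deposited, which centring cannot change.

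**Figure D1:**
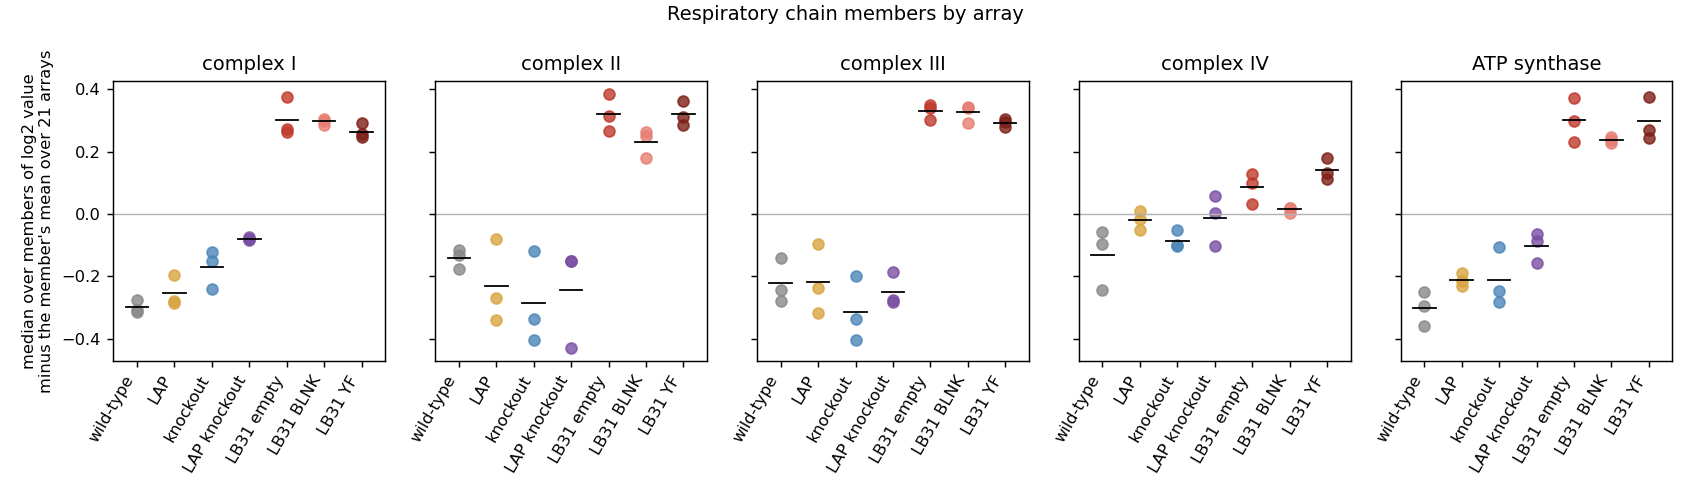
Each point is 1 array, placed on the vertical axis by the median, over the members of a complex, of the log2 value minus that member's mean over the 21 arrays, and the black lines are group means. In complexes I, II and III and in ATP synthase all 9 LB31 arrays lie above all 12 marrow arrays, while in complex IV the LB31 and marrow arrays overlap.

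The shift was shared by the LB31 arrays of all 3 vectors. Over all members, the median deviation of an array from each member's mean was 0.233 to 0.265 in the 9 LB31 arrays and -0.292 to -0.073 in the 12 marrow arrays. For 44 of 80 members (55%) every LB31 array was above every marrow array, where 18.8% of all genes tested did so. For 3 members (3.75%), Cox6b2, Cox7a2l and Uqcrb, every LB31 array was below every marrow array, against 19.6% of all genes. By complex, the LB31 arrays were all above the marrow for 19 of 34 members of complex I, 2 of 4 of complex II, 5 of 8 of complex III, 6 of 17 of complex IV and 12 of 17 of ATP synthase. LB31 is 1 line, and the line, leukaemia, culture, cell makeup, RNA integrity and its level of Cebpb, which is near that of the LAP groups, cannot be told apart in this contrast. In bulk samples, fewer cells of a type and less RNA per cell cannot be told apart either.

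Markers of other cell types were measured in the marrow sorts. The summed signal of 9 neutrophil marker genes was 16000 to 61500 in marrow arrays and 33.4 to 102 in LB31 arrays. Erythroid markers summed to 1600 to 11100 in marrow and 125 to 209 in LB31. Monocyte markers summed to at least 5770 in wild-type, knockout-labelled and LAP knockout-labelled marrow and at most 843 in LB31. Several of these markers, such as S100a9, Slc4a1 and Itgam, were above the filter on 12 marrow and 0 LB31 arrays. They passed the filter through the marrow alone, so these sums are a description and no calls are given. Of 17 cell cycle genes, 9 rose and 4 fell, where 29.4% of all genes tested rose and 29.9% fell. Those that rose included the replication helicase subunits Mcm2 (1.70 ± 0.13, SE) and Mcm3 (1.22 ± 0.12). The sorted lineage itself also differed, with 1 of 9 B-lineage markers higher and 5 lower in empty-vector LB31. The part of these differences in the shift of the respiratory chain was not tested.

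In complex I, 27 of 34 members rose and none fell in empty-vector LB31 relative to knockout-labelled marrow, with a median of 0.48. Ndufc1, an accessory subunit of the membrane arm, had values of 10.70, 10.65 and 10.76 in the knockout-labelled and lay between 11.99 and 12.01 in all 3 empty-vector arrays. The groups stand well apart, and each is tight. The rise was 1.30 ± 0.05 (SE), 2.46-fold, with a limma adjusted p of 2.87e-15, and a second probe set rose by 1.78. Ndufb5, also of the membrane arm, rose by 1.28 ± 0.07 (2.42-fold, limma adjusted p = 7.06e-13). Ndufab1, the mitochondrial acyl carrier protein, rose by 1.20 ± 0.06 at its representative. Ndufv1, the flavoprotein that accepts electrons from NADH, rose by 1.08 ± 0.07 (2.11-fold).

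When complex I was split, after its values were seen, into the subunits that carry the redox chemistry and the accessory ones, both parts were higher in LB31. Of the 6 nuclear-encoded core subunits measured (Ndufs1, Ndufs3, Ndufs7, Ndufs8, Ndufv1 and Ndufv2) 5 rose, with a median of 0.45, and 22 of 28 accessory subunits rose, with a median of 0.48. The core subunit not called was Ndufs3, at -0.12. The other complex I members not called lay between -0.31 for Ndufb4, a dim probe set above the filter on 5 arrays, and 0.19 for Ndufb6, with Ndufa9, Ndufa13 and Ndufb11 at 0.00 to 0.01 and Ndufv3 at -0.11.

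In complex II the 2 membrane anchors rose most. Sdhc, which binds ubiquinone with Sdhd, had values of 7.91, 7.77 and 8.09 in knockout-labelled marrow and 9.79, 9.68 and 9.89 in empty-vector LB31. The highest of all 12 marrow arrays was 8.16 for Sdhc and the lowest of all 9 LB31 arrays 9.68. Its rise was 1.86 ± 0.10 (SE), 3.63-fold, with a limma adjusted p of 6.17e-13, and a second probe set gave 1.28. Sdhd rose by 0.88 ± 0.12 (limma adjusted p = 1.75e-06), while its second probe set stood at 0.07 and was not called. Sdhb, the iron-sulfur subunit, rose by 0.34 ± 0.06 (limma adjusted p = 2.05e-05). Sdha, the flavoprotein that oxidizes succinate, was at -0.16 ± 0.07 and was not called (limma adjusted p = 0.0634).

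In complex III 6 of 8 members rose and 2 fell. Uqcr11, a small subunit, had values of 9.40, 9.56 and 9.82 in knockout-labelled marrow and 11.23, 11.36 and 11.43 in empty-vector LB31. All 9 LB31 arrays were at 11.23 or above, and all 12 marrow arrays at 9.82 or below. It rose by 1.75 ± 0.08 (SE), 3.36-fold (limma adjusted p = 3.38e-14), and Uqcrq by 1.47 ± 0.06 (2.77-fold). The members that fell were Uqcrb, which lies near the ubiquinone site, by 0.57 ± 0.05 (limma adjusted p = 2.33e-09), and the core protein Uqcrc2, by 0.33 ± 0.09 (0.00227), whereas after median centring they stood at 0.04 and 0.13. Uqcrb fell at both of its probe sets after quantile normalization, the second by 0.51.

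Complex IV had the smallest median change, 0.17, with 7 of 17 members higher, and 4 lower. The 4 include Cox6b2, which passed the filter through the marrow arrays alone. The 17 include 6 tissue-restricted isoforms, and the median of the 11 widely expressed members was 0.25. Cox8a, the widely expressed form of the smallest subunit, had values of 10.79, 10.79 and 10.81 in knockout-labelled marrow and 11.66, 11.77 and 11.80 in empty-vector LB31. The groups did not overlap, and the 6 BLNK-labelled and YF-labelled arrays were also above every marrow array. The rise was 0.95 ± 0.06 (SE), 1.93-fold (limma adjusted p = 5.67e-12), with its other probe sets at 1.06 and at 0.17, the latter not called. Ndufa4 rose by 0.65 ± 0.07 (1.57-fold). Cox7a2l, which is known to join complexes III and IV into supercomplexes, fell by 0.49 ± 0.06 (1.41-fold, limma adjusted p = 6.41e-07). Cox7c fell by 0.37 ± 0.13 (limma adjusted p = 0.0169) at its representative, while a second probe set was at 0.16 and was not called.

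In ATP synthase 16 of 17 members rose and none fell, with a median of 0.53. Atp5md, also known as DAPIT, a small membrane subunit linked to dimers of the enzyme, had values of 9.21, 8.88 and 9.36 in knockout-labelled marrow and 11.59, 11.13 and 11.31 in empty-vector LB31. The arrays do not overlap, although those of the marrow are more widely spread than for most members, reaching 8.23 in 1 LAP transgenic array. Its rise of 2.19 ± 0.20 (SE), 4.57-fold (limma adjusted p = 4.88e-09), was the largest among the members. All 5 subunits of the catalytic F1 head rose (median 0.45, Atp5d highest at 0.98), as did 3 of 4 subunits of the peripheral stalk, which holds the head still, and 5 of 5 other membrane subunits. Atp5h, of the stalk, stood at -0.07 and was not called, and Atp5pb, also of the stalk, rose by 0.13 (limma adjusted p = 0.0484).

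The c ring is built from 1 mature protein that 3 genes encode, and each of them rose. Atp5g1 had values of 9.04, 9.13 and 9.37 in knockout-labelled marrow and 10.72, 10.98 and 10.96 in empty-vector LB31, a rise of 1.71 ± 0.10 (SE), 3.27-fold (limma adjusted p = 2.09e-12). Atp5g2 rose by 0.87 ± 0.05 (1.82-fold, 1.16e-11 by the same test). Atp5g3 rose by 0.19 ± 0.05 (1.14-fold, 0.00434). The differences between these 3 changes were not tested. The Atp5g1 and Atp5g2 promoters are printed above, picked by these rises. Of 50 members with a promoter that rose in LB31, 2 held the NRF1 motif, 7 the ETS motif and 6 the E-box. Of the 17 other members with a promoter, 1, 5 and 0 held them. This split uses the same LB31 calls that picked the printed promoters, and a difference between its parts was not tested.

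**Figure D2:**
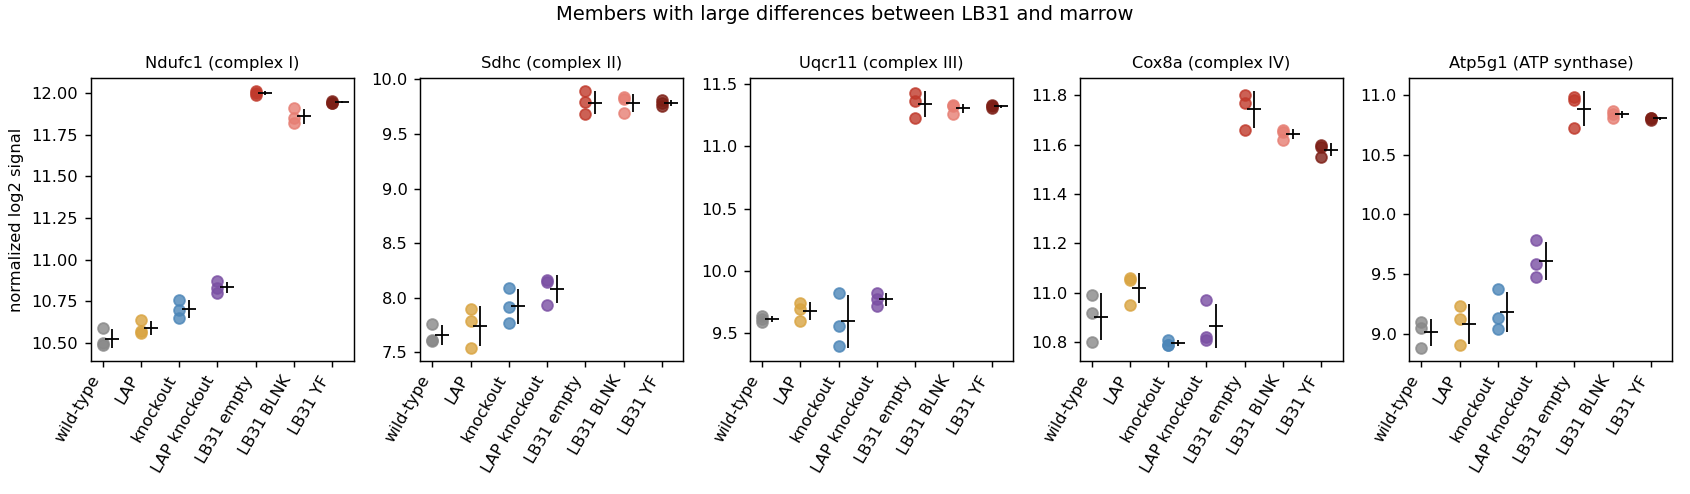
Each panel plots the normalized log2 signal of 1 member in every array of the 7 groups, with the mean and SD of 3 arrays, on an axis of its own that does not start at 0. Ndufc1, Sdhc, Uqcr11, Cox8a and Atp5g1 are all higher in each of the 9 LB31 arrays than in any of the 12 marrow arrays.

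None of the tissue-restricted isoforms of complex IV rose in LB31. Of 11 widely expressed members 7 rose and 2 fell in LB31, and of the 6 restricted members tested none rose, a split chosen after the values were seen. The 2 restricted members counted as lower were Cox6b2 and Cox7a1, and each has a limit given below. Cox6b2, known as a testis isoform, was at 5.36, 5.35 and 5.98 in knockout-labelled marrow and at 2.48, 3.28 and 2.36 in empty-vector LB31. All 12 marrow arrays were above the filter level of 4.06 and 0 of 9 LB31 arrays were, so its signal was at least 2.83-fold higher in knockout-labelled marrow, taking LB31 at that level. Cox6b2 passed the filter through the marrow arrays, so this difference is a description and no test is given. Its place in the counts of members that fell carries the same limit. Cox7a1, the heart and muscle isoform, fell by 0.91 ± 0.30 (limma adjusted p = 0.0124) with values of 4.85, 4.33 and 4.73 against 3.62, 4.38 and 3.18. Its groups overlap, and the call was lost without knockout-labelled array 1 or empty-vector array 3. Cox4i2 (-0.17), Cox8c (0.29), Cox8b (0.92) and the hypoxia-associated paralog Ndufa4l2 (0.11) were not called, and Cox8b was above the filter on 3 LB31 arrays and no marrow array.

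**Figure D3:**
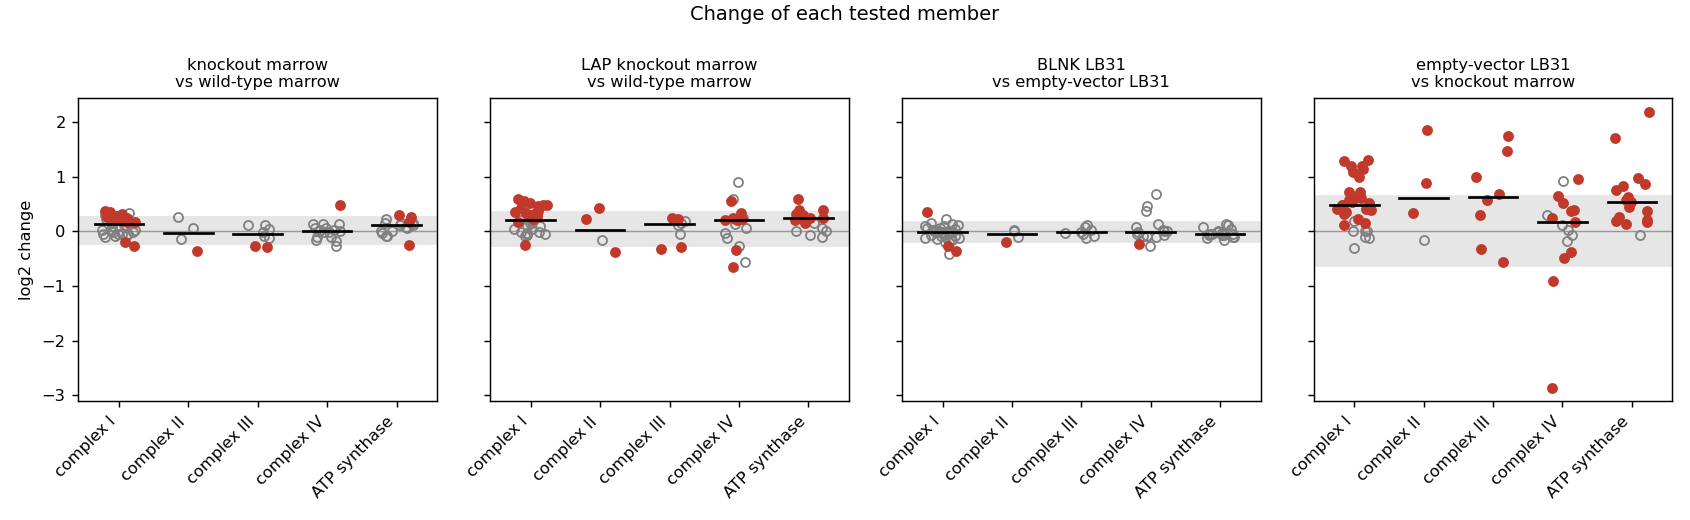
Each point is 1 member, placed by its log2 change in 1 of 4 comparisons and grouped by complex: filled red points were called, open grey ones were not, black lines are complex medians and the grey band spans the quartiles of all genes tested. In LB31 against knockout-labelled marrow the medians of complexes I, II, III and ATP synthase lie between 0.48 and 0.63 and that of complex IV at 0.17.

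Within the marrow, the LAP knockout-labelled cells differed most from wild-type: 38 members rose and 6 fell, 44 of 80, where 32.0% of all genes tested were called, 17.2% higher and 14.8% lower. The median change of the members was 0.20 against 0.04 for all genes. These changes are small, none reaching 2-fold among called members. As deposited, 48 members were called higher and 0 lower, with 29.6% and 4.64% of all genes. After median centring 8 were called higher and 7 lower, with 11.1% and 16.1% of all genes, so the scaling moves the calls of all genes together with those of the members. Relative to the median of all genes, the members were 0.16 higher after quantile normalization and 0.08 higher as deposited, which centring cannot change.

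Markers of other cell types moved in the same comparison. The summed signal of neutrophil markers was 19900 to 24700 in wild-type and 36600 to 47700 in LAP knockout-labelled marrow, with 9 of 9 genes higher in mean and 1 called. Megakaryocyte markers summed to 2520 to 2660 and 6930 to 10400, with 5 of 7 called higher, and 4 of 5 plasma cell markers were called lower. Of 9 B-lineage markers 3 were called higher and 4 lower, with changes from -2.70 to 2.75. Among 5 plasmacytoid dendritic cell markers 1 was called higher and 3 lower. The shares of all genes tested were 17.2% higher and 14.8% lower. All 17 cell cycle genes rose, of which 9 were called higher after median centring. Whether these shifts bear on the members' changes was not tested.

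In LAP knockout-labelled marrow members of all 5 complexes were called. Complex I had 17 of 34 members higher and 1 lower (median 0.22). Among its 28 accessory subunits 16 rose and 1 fell, and of 6 core subunits 1 rose, Ndufv2. Ndufs5, an accessory subunit of the membrane arm, had values of 9.95, 9.71 and 10.03 in wild-type and 10.38, 10.55 and 10.55 in LAP knockout-labelled marrow. The groups do not overlap. The rise was 0.60 ± 0.09 (SE), 1.52-fold (limma adjusted p = 1.11e-05), and it was called under all 3 scalings. Ndufa12 rose by 0.55 ± 0.05 (1.47-fold, limma adjusted p = 1.56e-08), a call lost when all its probe sets were averaged (0.31). Ndufa6 fell by 0.25 ± 0.07 (limma adjusted p = 0.00461), although as deposited it stood at 0.05.

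The succinate dehydrogenase genes went different ways. Sdhc had values of 7.61, 7.60 and 7.76 in wild-type and 7.93, 8.14 and 8.16 in LAP knockout-labelled marrow, with no overlap, and rose by 0.42 ± 0.10 (1.34-fold, limma adjusted p = 0.00214). Sdhb rose by 0.22 ± 0.06 (limma adjusted p = 0.00355), and both these calls were lost after median centring. Sdhd fell by 0.37 ± 0.12 (limma adjusted p = 0.0214) and was not called as deposited (-0.09) or without wild-type array 1 or LAP knockout-labelled array 1. Sdha was at -0.16 ± 0.07 and not called (limma adjusted p = 0.0882).

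Complex III had 2 members higher and 2 lower. Uqcrh, the acidic hinge protein that helps cytochrome c dock, had values of 11.65, 11.89 and 11.47 in wild-type and 11.35, 11.40 and 11.26 in LAP knockout-labelled marrow. Every LAP knockout-labelled array was under every wild-type array, a fall of 0.33 ± 0.09 (limma adjusted p = 0.00612). The call was lost without wild-type array 2 and in the deposited values (-0.08). Uqcrfs1, the Rieske iron-sulfur protein, fell by 0.28 ± 0.06 (limma adjusted p = 0.000991) but stood at 0.01 as deposited. Uqcrq rose by 0.25 ± 0.06 and Uqcrc1 by 0.22 ± 0.07. The call of Uqcrc1 was lost without wild-type array 1 or 3 or LAP knockout-labelled array 1 or 2, and neither was called after median centring.

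Complex IV had 6 members higher and 2 lower. Cox7c, a small subunit of the membrane part, had values of 7.65, 7.64 and 7.74 in wild-type and 6.79, 7.11 and 7.19 in LAP knockout-labelled marrow. The groups do not overlap, and the fall was 0.65 ± 0.13 (SE), 1.56-fold (limma adjusted p = 0.000458). A second probe set fell by 0.48 (limma adjusted p over all probe sets, 0.0391), while as deposited the representative stood at -0.29 and was not called. Cox5a, a subunit on the matrix side of the complex, rose by 0.56 ± 0.07 (1.48-fold, limma adjusted p = 3.08e-06) under all 3 scalings, with other probe sets at 0.46 and 0.40. Ndufa4 rose by 0.34 ± 0.07 and Cox7a2l fell by 0.35 ± 0.06.

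In ATP synthase 11 of 17 members rose and none fell (median 0.25). Atp5g1 had values of 9.05, 8.88 and 9.10 in wild-type and 9.58, 9.47 and 9.78 in LAP knockout-labelled marrow, with no overlap. It rose by 0.60 ± 0.10 (SE), 1.51-fold (limma adjusted p = 5.25e-05), and the mean with its second probe set, which is too dim to test alone, was at -0.04. Atp5g2 rose by 0.20 ± 0.05 and Atp5g3 by 0.15 ± 0.05, so all 3 c-ring genes were called. All 4 peripheral stalk genes rose, with Atp5pb at 0.39 ± 0.06 (limma adjusted p = 1.35e-05), against 1 of 5 in the F1 head. After median centring 1 ATP synthase member was called.

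**Figure D4:**
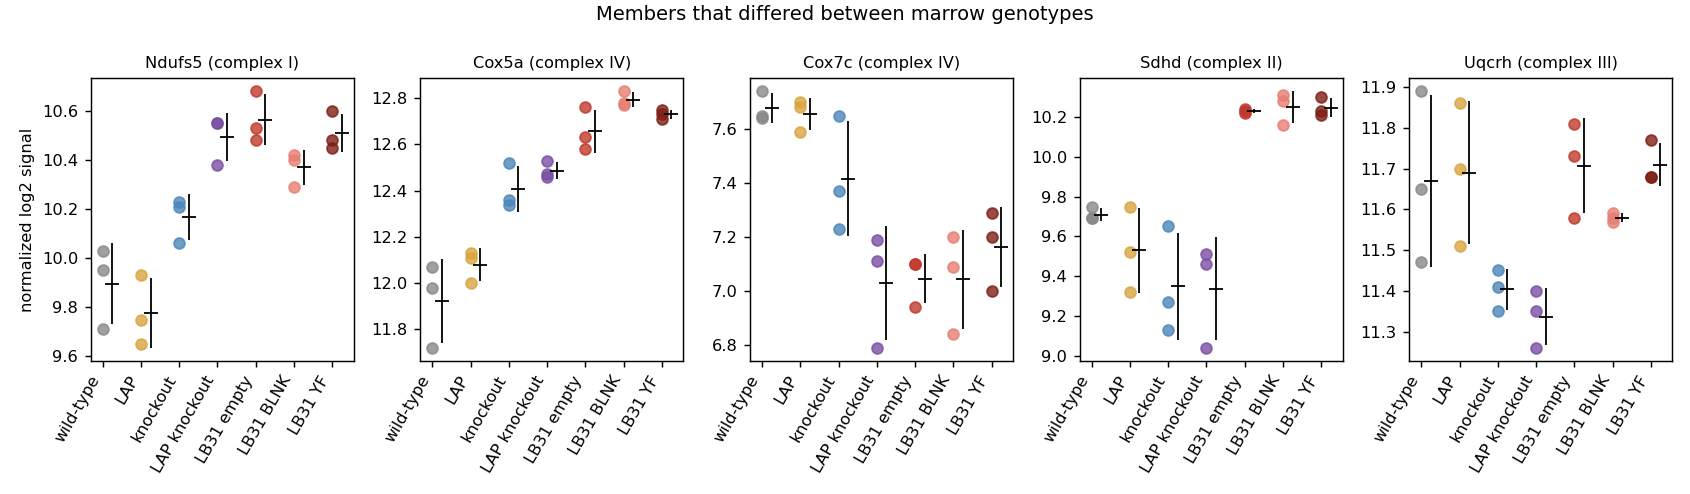
Each panel plots the normalized log2 signal of 1 member in every array of the 7 groups, with the mean and SD of 3 arrays, on an axis of its own that does not start at 0. Against wild-type, the LAP knockout-labelled arrays are higher for Ndufs5 and Cox5a and lower for Cox7c, Sdhd and Uqcrh.

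Knockout-labelled marrow without LAP was compared with the same wild-type arrays. Of 80 members 15 rose and 6 fell, 21 in all, where 20.2% of all genes tested were called, 10.2% higher and 10.0% lower. The median change was 0.07 against 0.01 for all genes. As deposited 23 were called higher and 0 lower, with 18.3% and 2.05% of all genes. After median centring 0 were called higher and 8 lower, with 5.47% and 10.8% of all genes. Relative to the median of all genes, the members stood at 0.06 after quantile normalization and at -0.01 as deposited, which centring cannot change. Knockout-labelled array 3 stood apart from its replicates, with a median member deviation of -0.099 against -0.211 and -0.228, and 13 members were called without it. Of all genes 2494 were called without that array and 2962 with it. Neutrophil markers summed to 16000 to 35100 in knockout-labelled marrow, with 0 of 9 called, and megakaryocyte markers to 2580 to 5660, with 1 of 7 called higher. Of the 9 B-lineage markers 2 rose and 3 fell, and 6 of 17 cell cycle genes rose. Their part in the members' changes was not tested.

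Of these calls 13 were in complex I, 11 higher and 2 lower. Ndufa5, an accessory subunit of the matrix arm, had values of 8.59, 8.67 and 8.67 in wild-type and 9.01, 8.93 and 9.08 in knockout-labelled marrow, a rise of 0.37 ± 0.06 (1.29-fold, limma adjusted p = 0.000248). The groups do not overlap. Ndufa12 rose by 0.35 ± 0.05 (limma adjusted p = 2.62e-05), and neither gene was called after median centring. Ndufa6 fell by 0.26 ± 0.07 and the core subunit Ndufs8 by 0.20 ± 0.07 (limma adjusted p = 0.0426), but as deposited they stood at 0.00 and 0.04. Ndufs8 was called only with all of wild-type arrays 2 and 3 and the 3 knockout-labelled arrays in place.

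In complex II Sdhd fell by 0.36 ± 0.12 (1.28-fold, limma adjusted p = 0.0397), from 9.75, 9.69 and 9.69 to 9.13, 9.27 and 9.65. Knockout-labelled array 3 lies just under the wild-type ones, and the call was lost without any 1 of the other 5 arrays. In complex III Uqcrfs1 fell by 0.28 ± 0.06 (1.22-fold, limma adjusted p = 0.0018), from 10.55, 10.68 and 10.54 to 10.21, 10.28 and 10.43. Here the groups do not overlap, though as deposited the value was -0.02 and not called. Uqcrh fell by 0.26 ± 0.09 (limma adjusted p = 0.0412), a call lost without wild-type array 1 or 2 or any knockout-labelled array.

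Cox5a was the member of complex IV called in this comparison. Its values were 11.98, 11.72 and 12.07 in wild-type and 12.36, 12.34 and 12.52 in knockout-labelled marrow, a rise of 0.48 ± 0.07 (SE), 1.40-fold (limma adjusted p = 4.88e-05). The arrays do not overlap, and the call was lost after median centring (0.27). In ATP synthase 3 members rose and 1 fell. Atp5pb, with values of 12.21, 12.17 and 12.16 against 12.43, 12.48 and 12.53, rose by 0.30 ± 0.06 (1.23-fold, limma adjusted p = 0.000532), and the catalytic subunit Atp5b by 0.26 ± 0.06. Both were lost after median centring. Atp5d fell by 0.25 ± 0.06 (limma adjusted p = 0.00572) but stood at 0.01 as deposited.

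In LAP transgenic marrow few members were called. Relative to wild-type 5 rose and 2 fell, 7 of 80, where 8.30% of all genes tested were called, 4.18% higher and 4.12% lower. The complex I members were Ndufv3 (0.28 ± 0.07, SE), Ndufb8 (0.24), Ndufc2 (0.21) and Ndufa6 (-0.22), and the complex IV members were Cox6a1 (0.22 ± 0.06), Cox7a2 (0.18) and Cox7a2l (-0.21 ± 0.06). Their limma adjusted p lay between 0.013 and 0.0442. No member was called as deposited or after median centring, and leaving out wild-type array 1, 2 or 3 gave 1, 4 or 3 calls and leaving out LAP transgenic array 3 gave 2. Without these arrays 662, 940, 640 and 760 of all genes were called, in the same order. In LAP transgenic array 3 neutrophil markers summed to 61500. The GAPDH ratio was 0.874 to 1.04 in LAP transgenic and 0.764 to 0.805 in wild-type arrays. Of 9 monocyte markers 3 rose and 9 were positive (median 0.84), and 5 of 17 cell cycle genes rose. Their part in the members' changes was not tested.

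Adding LAP to the knockout label was compared directly. In LAP knockout-labelled against knockout-labelled marrow 11 members rose and none fell, where 10.5% of all genes tested were called, 5.45% higher and 5.10% lower. They included Atp5g1 (0.43 ± 0.10, SE, limma adjusted p = 0.00513), Ndufa4 (0.33 ± 0.07, 0.00337), Ndufs5 (0.33 ± 0.09, 0.0157), Ndufb7 (0.29), Uqcr10 (0.28, with overlapping groups), Atp5d (0.27 ± 0.06), Uqcrq (0.20) and Cox7a2 (0.17). No member was called as deposited, with 1.80% of all genes higher and 2.27% lower, and 1 was called after centring, with 2.64% and 3.35%. In the same comparison 5 of 7 megakaryocyte markers rose (median 1.39), 4 of 5 plasmacytoid dendritic cell markers fell (median -1.73) and 6 of 9 B-lineage markers were called. Their part in the members' changes was not tested. Ndufs5 was not called without knockout-labelled array 2 or LAP knockout-labelled array 2 or 3. The count was 24 without knockout-labelled array 3, and fell to 6 without array 1 and 4 without array 2 of that group, and to 6 or 7 without LAP knockout-labelled array 2 or 3. Of all genes 2081, 1057, 898, 1147 and 1179 were then called, in the same order.

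The knockout label was also compared in the presence of LAP. Against LAP transgenic marrow, 26 members rose and 4 fell in LAP knockout-labelled marrow, 30 in all, where 28.4% of all genes tested were called, 15.6% higher and 12.9% lower. As deposited 60 were called higher and 0 lower, with 34.3% and 3.36% of all genes, and after centring 14 and 3, with 11.2% and 11.0%. The members stood 0.07 above the median of all genes both after quantile normalization and as deposited, which centring cannot change. In the same comparison 5 of 7 megakaryocyte markers rose (median 1.07), 3 of 5 plasma cell markers fell (median -1.45), 7 of 9 B-lineage markers were called and 7 of 17 cell cycle genes rose. Their part in the members' changes was not tested. Ndufs5 (0.72 ± 0.09, SE, 1.65-fold, limma adjusted p = 1.25e-06) and Ndufb1 (0.72 ± 0.16) rose most in complex I, where 15 members rose and none fell. Atp5g1 rose by 0.53 ± 0.10, the stalk subunit Atp5j by 0.40 ± 0.07, Cox5a by 0.41 ± 0.07, Sdhc by 0.33 and Uqcrc2 by 0.32 ± 0.09. The call of Sdhc was lost without LAP transgenic array 1 or LAP knockout-labelled array 2 or 3. Cox7c fell by 0.63 ± 0.13 (limma adjusted p = 0.000695), and Uqcrh, Uqcrfs1 and Cox8a fell by 0.36, 0.22 and 0.16, but as deposited these 3 stood at 0.01, 0.20 and 0.27. The call of Uqcrfs1 was lost without LAP knockout-labelled array 1, and that of Cox8a, whose groups overlap, without LAP transgenic array 1 or 3 or LAP knockout-labelled array 2 or 3.

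The interaction asks whether LAP changed a member differently with and without the knockout label. Ndufs5 was the single member called, where 4.18% of all genes tested were, 1.88% higher and 2.30% lower. Without the knockout label its mean was 9.90 ± 0.17 (SD, n = 3) in wild-type and 9.78 ± 0.14 with LAP. With the label it was 10.17 ± 0.09, and 10.50 ± 0.10 with LAP as well. LAP moved it by 0.45 ± 0.12 (SE) more with the knockout label than without (limma adjusted p = 0.04), a call lost as deposited and after centring. It was also lost without wild-type array 1 or 3, LAP transgenic array 1 or 3, knockout-labelled array 1 or 2, or LAP knockout-labelled array 2 or 3. Without knockout-labelled array 3, 5 members were called, and 801 of all genes.

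In the BLNK-labelled LB31 arrays few members were called. Relative to the empty vector 1 rose and 4 fell, 5 of 80, where 6.33% of all genes tested were called, 2.55% higher and 3.79% lower. The median change was -0.02 against 0.00 for all genes. As deposited none was called, with 1.73% of all genes higher and 0.908% lower. After median centring 21 were called higher and none lower, with 8.18% and 1.71% of all genes, and the median of all genes was then at 0.12. Relative to that of all genes, the median of the members stood at -0.02 after quantile normalization and at 0.13 as deposited, which centring cannot change.

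Ndufb7, an accessory subunit of the membrane arm of complex I, had values of 11.23, 11.39 and 11.41 with the empty vector and 10.94, 11.04 and 10.98 in the BLNK-labelled arrays. The groups do not overlap, and the fall was 0.36 ± 0.08 (1.28-fold, limma adjusted p = 0.00542). Ndufb6, also of the membrane arm, rose by 0.36 ± 0.10 (limma adjusted p = 0.0331). Its values were 10.83, 10.43 and 10.55 against 10.96, 10.93 and 10.99. Ndufs8, a core iron-sulfur subunit, fell by 0.27 ± 0.07 (limma adjusted p = 0.0179).

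In complex II Sdhb fell by 0.20 ± 0.06 (1.15-fold, limma adjusted p = 0.0301), from 11.22, 11.43 and 11.32 to 11.11, 11.15 and 11.10. In complex IV Cox7a2l fell by 0.23 ± 0.06 (1.17-fold, limma adjusted p = 0.0299), from 10.88, 10.93 and 10.86 to 10.59, 10.61 and 10.77. Neither pair of groups overlaps, but Ndufs8, Sdhb and Cox7a2l stood at 0.02 to 0.06 as deposited and at 0.03 to 0.08 after median centring. Their calls and that of Ndufb6 were each lost without empty-vector array 2 or 3 or BLNK-labelled array 1 or 2, and those of Ndufb6 and Sdhb also without BLNK-labelled array 3. No complex III or ATP synthase member was called.

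The YF mutant against the same empty-vector arrays gave 0 member calls with limma, where 0.0546% of all genes tested were called (0.0341% higher and 0.0205% lower), and 10 members had an unadjusted p under 0.05. As deposited 0 were called, and after median centring 8 were called higher, with 5.60% of all genes higher. The 5 members named for BLNK stood at 0.15 for Ndufb6, -0.20 for Ndufb7, -0.31 for Ndufs8 (limma adjusted p = 0.101), -0.02 for Sdhb and -0.04 for Cox7a2l. BLNK-labelled against YF-labelled arrays also gave 0 member calls with limma, where 3.25% of all genes tested were called (1.23% higher and 2.02% lower), and 8 members had an unadjusted p under 0.05. No member was called as deposited or after centring either. There Ndufb6 stood at 0.21, Ndufb7 at -0.15, Ndufs8 at 0.04, Sdhb at -0.18 (limma adjusted p = 0.0854) and Cox7a2l at -0.19 (0.125). In a fit of the LB31 arrays alone 14 members were called for BLNK against the empty vector, 1 for YF and 7 for BLNK against YF. In that fit 2072, 45 and 1174 of all genes were called, in the same order, so calls of all genes rose with those of the members.

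Some members were measured by several probe sets that disagreed. Among the 65 members called in LB31 against knockout-labelled marrow, 76 further probe sets gave 49 calls in the same direction, 8 in the opposite direction and 15 no call, with 4 too dim to test. The 8 genes with calls both ways were Atp5a1, Atp5c1, Atp5j2, Cox5b, Cox6c, Ndufab1, Ndufb2 and Uqcrq, in each of which the brightest probe set rose. For Atp5c1, of the F1 head, the representative was at 0.26 and another at -2.33 ± 0.16 (SE). In LAP knockout-labelled against wild-type marrow, probe sets of Atp5j2, Ndufab1, Sdha and Uqcrq were called both ways. The Sdha probe sets, for example, gave -0.16 (not called), 0.30 ± 0.08 and -0.89 ± 0.32. At the level of single probe sets, 128 of 161 were called in LB31 (110 higher, 18 lower), where 56.9% of all probe sets tested were.

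The other mitochondrial genes were described from lists. Their counts in LB31 stand beside 29.4% of all genes tested called higher and 29.9% called lower. In LB31 against knockout-labelled marrow, 33 of 45 assembly factors of the respiratory complexes rose and 5 fell (median 0.61), with the complex I assembly factors Ndufaf4 (2.46 ± 0.11, SE) and Ndufaf6 (2.00 ± 0.21) highest. Of 76 mitochondrial ribosomal proteins, which serve to translate the mitochondrially encoded subunits, 70 rose and 1 fell, among them Mrps27 (2.23 ± 0.16) and Mrpl38 (2.11 ± 0.16). Of 20 genes of mitochondrial biogenesis 10 rose and 7 fell, led by the coactivator Pprc1 (1.86 ± 0.08) and the DNA helicase Twnk (1.55 ± 0.11). Of 20 electron carrier and ubiquinone genes 12 rose and 2 fell, led by Coq4 (2.03 ± 0.22) and the glycerol-3-phosphate dehydrogenase Gpd2 (1.66 ± 0.12). Of 17 genes of pyruvate metabolism and the citric acid cycle 6 rose and 2 fell (median 0.10), led by the pyruvate carboxylase Pcx (1.74 ± 0.20) and Idh3a (1.15 ± 0.10). Of 7 genes of ATP export 5 rose and 1 fell: Slc25a4, an adenine nucleotide carrier, fell by 0.86 ± 0.08. As deposited, the calls were 13 higher and 7 lower for assembly factors, 47 and 2 for ribosomal proteins, 2 and 8 for biogenesis, 4 and 5 for carriers, and 3 and 3 for the citric acid cycle list. Of all genes 12.8% were then called higher and 43.2% lower, and the biogenesis list was near these shares. After median centring the list counts, in the same order, were 35 and 1, 74 and 0, 12 and 2, 14 and 0, and 15 and 0, with 33.9% and 24.4% of all genes.

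**Figure D5:**
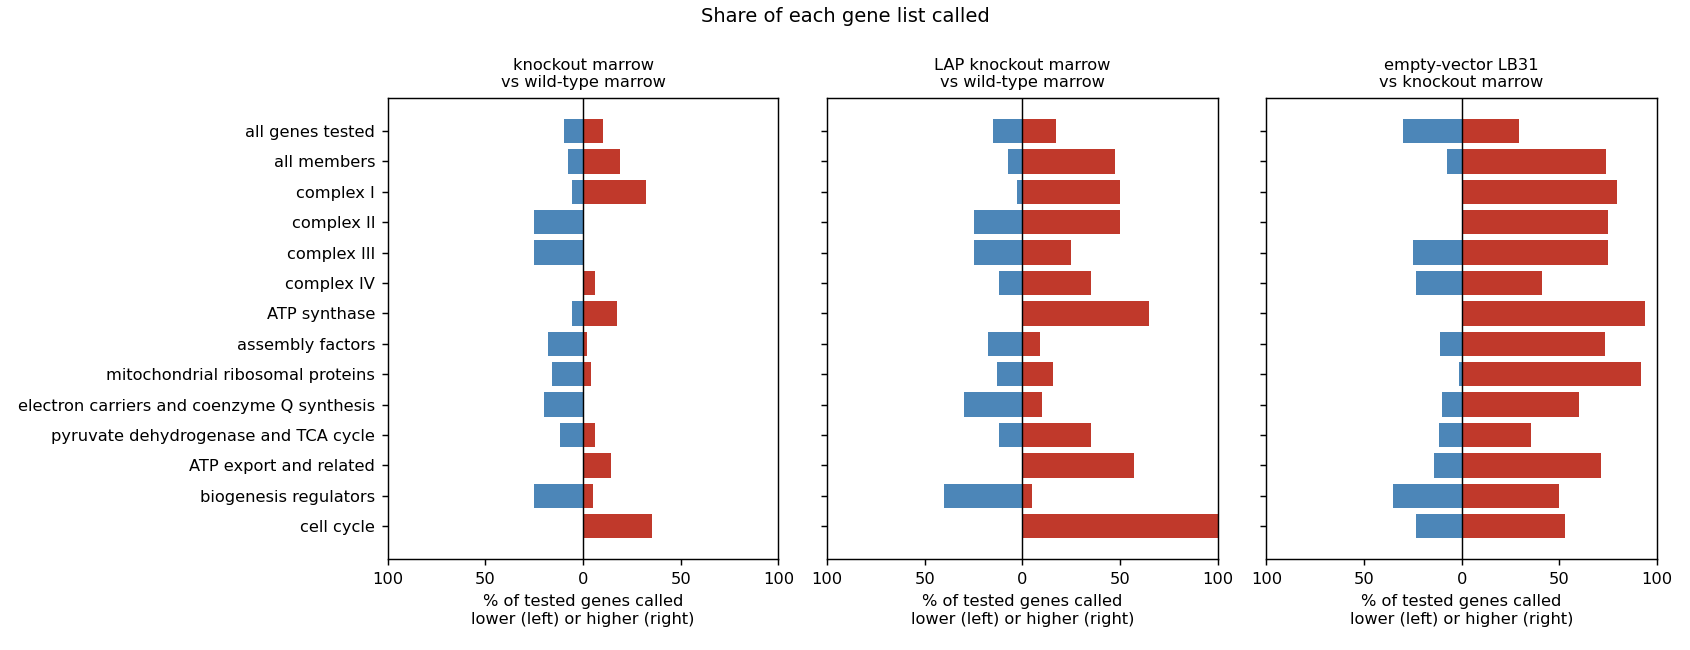
Bars give the percentage of tested genes called lower (left, blue) or higher (right, red) for all genes, the members, each complex and the other lists in 3 comparisons. In LB31 most assembly factors, mitochondrial ribosomal proteins and members were called higher. In LAP knockout-labelled marrow 17.8% of assembly factors were called lower, near the 14.8% of all genes.

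The same lists were counted in the marrow. In LAP knockout-labelled against wild-type marrow 4 of 45 assembly factors rose and 8 fell, 8.89% and 17.8%, where 17.2% and 14.8% of all genes tested did so. The largest falls were those of Ttc19 (-0.85 ± 0.18, SE) and Sco2 (-0.75), and after median centring none rose and 8 fell, with 11.1% and 16.1% of all genes. Of 20 biogenesis genes 1 rose (5%) and 8 fell (40%), including the mitochondrial polymerase subunit Polg2 (-0.82 ± 0.10) and Mterf1a (-0.70), and 2 of 20 carrier genes rose and 6 fell, including Coq8a (-0.82) and Coq2 (-0.66). As deposited, 14 assembly factors were called higher and 1 lower, and 2 biogenesis genes higher and none lower. Of all genes 29.6% were then called higher and 4.64% lower, so the assembly factors were near the shares of all genes. Of the citric acid cycle list 6 of 17 rose and 2 fell, and of the ATP export list 4 of 7 rose and none fell, with Slc25a4 at 0.50 ± 0.08 and the ATP synthase inhibitor Atpif1 at 0.53 ± 0.17. Against wild-type, knockout-labelled marrow had 1 assembly factor higher and 8 lower (17.8%, with 10.0% of all genes), among them Tmem126b (-0.64) and Coa6 (-0.52), and Slc25a4 rose by 0.42 ± 0.08. In BLNK-labelled against empty-vector LB31, 2 assembly factors rose, Ndufaf4 (0.60 ± 0.11) and Cox15 (0.59 ± 0.16), as did Slc25a4 (0.31 ± 0.08) and 4 ribosomal proteins, and none of these lists had a gene called lower. Of all genes tested 2.55% were called higher and 3.79% lower there.

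The factors whose motifs were searched, and Tfam, which packages and transcribes mitochondrial DNA, were themselves measured, a choice made after values were seen. In LB31 against knockout-labelled marrow Nrf1 rose by 0.39 ± 0.12 (SE, limma adjusted p = 0.00605), Gabpa, the DNA-binding subunit of GABP, fell by 0.46 ± 0.10 (0.000589), Myc rose by 3.72 ± 0.16 (2e-14) and Tfam rose by 0.49 ± 0.09 (9.17e-05). In LAP knockout-labelled against wild-type marrow Nrf1 (-0.05), Gabpa (0.12) and Myc (0.28) were not called, with limma adjusted p of 0.807, 0.423 and 0.202, and Tfam fell by 0.37 ± 0.09 (0.00363).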

How the data were processed

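The authors deposited a linear intensity for each probe set of 21 Affymetrix arrays, and the submitters' processing notes name MAS5 without a version. Total RNA of 100 ng was used per sample, per the labels' protocols. Any scaling of the arrays by the authors is not stated there or in the labels. From these signals the log2 of signal plus 4 was quantile normalized. The probe set with the highest mean log2 stood for each gene with 1 symbol, and genes above the 40th percentile of their own array on at least 3 arrays were kept (14655 of 18193). The 10 comparisons, listed with the results, were tested two-sided in 1 fit with limma 3.58.1 in R 4.3.3 (eBayes with an intensity trend) and Benjamini-Hochberg adjustment. On simulated data the procedure recovered 117 of 200 genes given a 2-fold change (knockout against wild-type, 14655 genes). Replicates of 1 group correlated at 0.963 to 0.980. Arrays give no counts, so their number limits the precision.

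The members and lists were chosen with earlier results of these data known. Genes were named by rule: the 2 largest rises and falls called in each complex, all calls where there were 5 or fewer, complex II, isoforms and paralogs, genes with probe sets called both ways, and the 2 largest calls of each list. Of the members' probe sets, 10 that name several genes were left out, and 16 of the 81 representatives are of the types that can bind related transcripts. Alternatives tried were other scalings, pseudocounts of 1 and 16, no filter, averaged or single probe sets, no trend, a replicate block, separate fits of marrow and LB31, and leaving out each array. Protein sequences were not used here.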

Additional observations from a re-analysis of the deposited data

Results flagged for a closer look

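Ndufs5, an accessory subunit of complex I, is listed because it was called in the interaction of LAP and the knockout label. With the knockout label, the change with LAP exceeded that between LAP transgenic and wild-type marrow by 0.45 on the log2 scale (limma adjusted p = 0.04). Over the alternatives it lay between 0.38 and 0.60, with adjusted p from 0.0109 without wild-type array 2 to 0.363 in the deposited values. It was the single member of 80 called in that test.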

How the results depend on the processing

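Relative to the median of all genes, the direction of the members as a group in LB31 against marrow was the same after quantile normalization and as deposited. Centring cannot change the deposited difference, so it adds nothing here. In knockout-labelled against wild-type marrow the scaling moved all genes together: the median of the members was 0.29 as deposited and -0.08 after centring, and that of all genes 0.29 and -0.07. The cause of the other changes was not tested. With the deposited values the number of members called was 0 for LAP transgenic against wild-type, 0 for LAP knockout-labelled against knockout-labelled, 60 against LAP transgenic, 0 for the interaction, 0 for BLNK against the empty vector and 43 for LB31 against knockout-labelled marrow. With median centring it was 8 for knockout-labelled and 0 for LAP transgenic against wild-type, 15 for LAP knockout-labelled against wild-type, 1 against knockout-labelled, 17 against LAP transgenic, 0 for the interaction, 21 for BLNK and 8 for YF against the empty vector. Without the intensity trend it was 13 for knockout-labelled and 1 for LAP transgenic against wild-type, 6 for LAP knockout-labelled against knockout-labelled, 0 for the interaction and 1 for BLNK against the empty vector. Of all genes, 2731, 896, 1244, 431 and 716 were called without the trend, in the same order. With averaged probe sets the number of members called was 3 for LAP transgenic against wild-type, 6 for LAP knockout-labelled against knockout-labelled, 0 for the interaction and 3 for BLNK against the empty vector. Averaging gave 969, 1220, 436 and 662 calls of all genes, in the same order. Without the filter LAP transgenic against wild-type gave 3, with 1091 of all genes called. With each probe set tested on its own the interaction gave 0, with 885 of all probe sets called. With marrow and LB31 fitted apart the counts were 11 for knockout-labelled and 0 for LAP transgenic against wild-type, 5 for LAP knockout-labelled against knockout-labelled, 0 for the interaction, 14 for BLNK and 1 for YF against the empty vector, and 7 for BLNK against YF. Of all genes, 2277, 533, 1021, 231, 2072, 45 and 1174 were called in these fits, in the same order.

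Leaving out 1 array at a time gave 13 to 20 calls for knockout-labelled, 1 to 8 for LAP transgenic and 39 to 41 for LAP knockout-labelled against wild-type, 4 to 24 for LAP knockout-labelled against knockout-labelled and 27 to 31 against LAP transgenic. It gave 0 to 5 for the interaction, 1 to 6 for BLNK and 0 to 1 for YF against the empty vector (1 without empty-vector array 1), 0 for BLNK against YF, and 59 to 64 for LB31 against knockout-labelled marrow. The calls of all genes moved as well. In LAP knockout-labelled against knockout-labelled marrow they numbered 898 at the 4 member calls and 2081 at the 24.

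Signs that turned were, in the deposited values, Ndufa6 (0.00), Ndufs8 (0.04) and Atp5d (0.01) in knockout-labelled and Ndufa6 (0.05) and Uqcrfs1 (0.01) in LAP knockout-labelled against wild-type, Uqcrh (0.01), Uqcrfs1 (0.20) and Cox8a (0.27) against LAP transgenic, and Ndufs8 (0.02), Sdhb (0.06) and Cox7a2l (0.02) for BLNK against the empty vector. With median centring Ndufs8 (0.03), Sdhb (0.08) and Cox7a2l (0.04) turned for BLNK, and Uqcrb (0.04) and Uqcrc2 (0.13) in LB31. With averaged probe sets Atp5g1 turned in LAP knockout-labelled against wild-type (-0.04). Same-numbered arrays did not deviate together (correlations of -0.093 to 0.062), and a block on the replicate number gave 22, 6 and 45 calls for knockout-labelled, LAP transgenic and LAP knockout-labelled against wild-type, 10 for LAP knockout-labelled against knockout-labelled, 32 against LAP transgenic, 1 for the interaction, 5 for BLNK, 0 for YF, 0 for BLNK against YF and 64 for LB31. With the block 2921, 1159, 4653, 1543, 4100, 590, 904, 7, 470 and 8676 of all genes were called, in the same order. Signals near background limit Cox4i2, Cox6b2, Cox7a1, Cox8b, Ndufa4l2 and Ndufb4.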
